A study of Mus musculus with 30 samples.

Results

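Oligodendrocyte precursors are dividing glial cells that arise in the ventral spinal cord and ventral forebrain before birth, spread through the tissue and later make myelin. The 10 genes described here are used to recognise these precursors and the committed precursors that follow them: Pdgfra, Cspg4, Gpr17, Sox10, Sox8, Bcas1, Enpp6, Lhfpl3, Neu4 and Rlbp1. They were chosen by gene symbol, and every probe set that the platform annotation gives to one of them was taken. This gave 18 probe sets of 9 genes out of 45101 probe sets and 18193 genes on the array, and no probe set carried the symbol Neu4, alone or beside others. The question put to each gene was how far its transcript depended on the Olig1 and Olig2 genes in spinal cord, in forebrain and in cultured neurospheres.

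The data were 30 Affymetrix mouse arrays, of which 8 held tissue and 22 held neurospheres, floating cultures of neural progenitor cells. Tissue arrays came from the spinal cord and the forebrain of 4 embryos at E18.5, and each tissue had 2 null and 2 heterozygous arrays. The labels of these tissue samples name the Olig2 genotype (-/- or +/-), while the design text names Olig1/2. The neurosphere cultures came from the ganglionic eminences at E14.5, all lacked Ink4a/Arf, all grew in EGF and bFGF, and all were given the mutant receptor hEGFRvIII by retrovirus. Of these, 3 lines were wild-type for Olig1/2, 3 were heterozygous and 6 were null, with 1 array a line. A second retrovirus carrying GFP or Olig2 was put into heterozygous lines 11 and 15 and null lines 12, 13 and 14, which gave 10 further arrays. The background of all samples was mixed Swiss and C57BL/6J. Each line is 1 culture selected with drug, and cultures were harvested over a range of passages that is not given per array. Tissue samples had Ink4a/Arf status unstated and no virus, so tissue and culture differ in more than their origin.

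Olig1 and Olig2 lie side by side and encode transcription factors of the helix-loop-helix family, and mice without them fail to form spinal oligodendrocyte precursors. Pdgfra, the receptor for platelet-derived growth factor A, and Cspg4, the NG2 proteoglycan, are surface proteins of the dividing precursor. Sox10 and its close relative Sox8 are transcription factors of the glial lineage, and Sox10 is also active in Schwann cells outside the central nervous system. Gpr17, Bcas1 and Enpp6 mark the passage from precursor to myelin-forming cell.

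The deposited values are MAS5 signals, a linear brightness on which each array was scaled to the same trimmed mean, and the median signal of an array lay between 128.9 and 217.4. A signal near or below that median is dim and poorly measured. Differences are given in log2(signal + 16), null minus control, with their standard error (SE), and were tested with limma. A probe set was called when its adjusted p was under 0.05. The p-values measure the spread between these arrays, and bulk arrays cannot tell fewer cells of a type from less RNA in each cell.

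The probe sets of Olig1 and Olig2 were read first as a check of the labels. In spinal cord the Olig2 signal was 535.6 ± 283.5 (SD, n = 2) in heterozygotes and 41.15 ± 24.54 in nulls, and that of Olig1 was 3985 ± 118.1 and 1942 ± 91.22. In forebrain the Olig2 signal was 394.2 ± 176.8 against 143.8 ± 49.36, while the Olig1 signal was 1987 ± 283.4 against 1787 ± 143.8. The forebrain Olig1 ranges overlapped. Null neurospheres kept an Olig2 signal of 8302 ± 2120 (SD, n = 6), below the 13020 ± 1457 of the heterozygous lines (n = 3) but far from dim. With Olig2 virus that probe set read 6720 ± 2918 in null lines, beside 9168 ± 1015 in null lines with GFP (n = 3 each). The positions of these probes in relation to the deleted part and to the viral insert are not given in the sources used here, so cultures are called null after their labels.

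RefSeq promoter windows (GRCm38.p6, 250 bases before to 50 bases after the start) were found for 7 members: Cspg4, Pdgfra, Rlbp1, Sox8, Lhfpl3, Enpp6 and Neu4. The windows of 3 are shown because these genes took the 3 courses seen below. Cspg4, at chr9:56864854-56865153 on the plus strand, read lower without Olig in all 3 settings and was called in culture. Pdgfra, at chr5:75152001-75152300 on the plus strand, read lower in both tissues without a call. Rlbp1, at chr7:79386978-79387277 on the minus strand, was higher in null cultures than in those with Olig, though not called against heterozygous lines alone. Capitals mark a match to one of 3 motifs searched on both strands: the E-box forms CAGCTG and CAGATG, and the Sox core ACAAAG.
Cspg4: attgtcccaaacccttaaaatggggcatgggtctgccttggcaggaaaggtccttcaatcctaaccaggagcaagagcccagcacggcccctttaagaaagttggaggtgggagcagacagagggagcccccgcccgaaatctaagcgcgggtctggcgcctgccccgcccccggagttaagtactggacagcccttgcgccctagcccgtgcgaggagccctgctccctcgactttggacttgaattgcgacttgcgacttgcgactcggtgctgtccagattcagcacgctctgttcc
Pdgfra: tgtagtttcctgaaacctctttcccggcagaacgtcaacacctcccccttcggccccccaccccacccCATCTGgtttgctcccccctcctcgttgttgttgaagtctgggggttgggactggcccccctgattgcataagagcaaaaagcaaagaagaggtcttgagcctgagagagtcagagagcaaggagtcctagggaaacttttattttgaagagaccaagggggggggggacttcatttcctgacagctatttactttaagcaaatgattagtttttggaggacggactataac
Rlbp1: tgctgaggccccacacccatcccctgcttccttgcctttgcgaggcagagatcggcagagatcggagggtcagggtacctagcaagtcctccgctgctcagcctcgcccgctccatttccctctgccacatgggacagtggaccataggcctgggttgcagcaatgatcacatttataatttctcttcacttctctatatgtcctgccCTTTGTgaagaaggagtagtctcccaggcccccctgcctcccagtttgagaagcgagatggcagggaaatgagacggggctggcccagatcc

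The Cspg4 window held none of these letters. That of Pdgfra held CATCTG, the other strand of CAGATG, which 17.2% of all 32851 windows hold on either strand. That of Rlbp1 held CTTTGT, the other strand of ACAAAG, found in 18.7% of all windows. Lhfpl3 had CAGCTG at 2 places, a motif held by 16.3% of windows, and the windows of Sox8, Enpp6 and Neu4 held none of the 3. These matches describe the sequence and say nothing of a factor's binding.

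Not all member probe sets could be read. Both Enpp6 probe sets, whose gene encodes a choline phosphodiesterase of newly forming oligodendrocytes, stayed under the array median on all 30 arrays, with signals from 4.9 to 166.1. The weaker probe sets of Pdgfra (1438946_at) and of Bcas1 (1430758_x_at and 1453641_at) were also too dim to be tested in any comparison. A probe set was tested where enough arrays, at least the size of the smallest group, reached their median, which left 12 member probe sets of 8 genes in tissue, 9 of 7 genes in the neurospheres without a second virus, and 8 of 6 genes in those with one. Gpr17 passed in tissue only through its 4 heterozygous arrays, and Sox10 1425369_a_at only through 2 heterozygous arrays, 1 of each tissue. Sox8 and Sox10 1451689_a_at also needed their heterozygous arrays to pass in tissue. Cspg4 1423341_at passed only through spinal cord heterozygotes in tissue and, in neurospheres without a second virus, only through lines with Olig. In those neurospheres Rlbp1 and Sox10 1451689_a_at passed only with the null lines counted. Of the 6 lines with Olig, 2 and 1 reached the median for them. Passing in this way favours a difference between groups, so counts over the tested members are given as description only.

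In spinal cord all 12 tested member probe sets lay below 0 in the null, but only Gpr17 was called. Its signal was 1837.5 and 1853.4 in the heterozygotes and 22.4 and 15.5 in the nulls. Gpr17, a G protein-coupled receptor of committed precursors, was thus bright on both control arrays and far under the array median in both nulls. It fell by 5.74 ± 0.37 (SE) on the log2 scale, a 53.5-fold difference on that scale, with an adjusted p of 2.8e-04 by limma. The size rests on dim null values: it ran from -6.55 to -4.53 over 10 other settings, all of which called it, and a filter on the mean signal removed it from the test. Of all 25925 probe sets tested in spinal cord, 21 were called (0.0810%), 14 of them lower (0.0540%).

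The other committed-precursor gene with a readable signal, Bcas1, encodes a protein of early myelinating cells. Its probe set 1428792_at read 1371.1 and 1582.6 in heterozygous spinal cord and 238.6 and 111.3 in the null. The groups were far apart, but the difference of -3.05 ± 0.49 (SE) had an adjusted p of 0.0755 and was not called. It passed the threshold when forebrain heterozygote 3 or 4 was left out (range -3.55 to -2.55 over 8 arrays left out in turn), with a larger pseudocount of 64, and with the spinal cord arrays fitted alone.

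Among the receptor and proteoglycan genes, the spinal cord kept much of its signal without Olig. Pdgfra 1421917_at read 1231.5 and 1401.7 in heterozygotes and 453.4 and 913.6 in nulls, a difference of -1.01 ± 0.45 (SE; 95% interval -2.0 to -0.02; adjusted p 0.841). Both null arrays were below both controls, and both were still above their array's median. The other Pdgfra probe sets were under the median on all 8 tissue arrays and not tested. In spinal cord 1421916_at read 156.3 and 170.6 in heterozygotes and 115.1 and 35.8 in nulls. The genotypes of 1438946_at overlapped there, at 12.6 and 62.6 against 82.6 and 14.6. Cspg4 1450944_at read 691.3 and 709.0 against 370.4 and 361.1, with -0.91 ± 0.19 (SE) and an adjusted p of 0.224. The second Cspg4 probe set, 1423341_at, read 403.5 and 294.0 against 99.8 and 193.0, with -1.21 ± 0.61 (SE; adjusted p 0.890). Neither Cspg4 probe set was called, and neither overlapped between genotypes.

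The Sox10 probe sets differed in size. Probe set 1451689_a_at read 717.9 and 1238.7 in heterozygous spinal cord and 52.6 and 309.1 in the null, with -2.68 ± 0.61 (SE; adjusted p 0.312). Probe set 1424985_a_at read 653.9 and 672.5 against 428.3 and 542.8, with -0.45 ± 0.22 (SE; adjusted p 0.885). Both separated the genotypes, but the first was lower by a fold of 6.43 and the second by a fold of 1.36. The third, 1425369_a_at, was dim and gave -0.76 ± 0.52 (SE). Sox8 read 244.4 and 300.3 against 187.3 and 80.1, with -1.04 ± 0.47 (SE; adjusted p 0.841).

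Lhfpl3, a membrane protein gene of the tetraspan family, read 1137.2 and 1114.9 in heterozygous spinal cord and 724.6 and 768.6 in the null on 1433990_at. This difference of -0.58 ± 0.17 (SE) had an adjusted p of 0.542. The dimmer Lhfpl3 1429592_at read 182.5 and 265.4 against 178.1 and 219.7, and its genotypes overlapped (-0.14). Rlbp1, the retinaldehyde-binding protein gene also expressed in glia of the retina, read 388.7 and 304.2 against 305.9 and 196.3, and its genotypes overlapped (-0.46 ± 0.24, SE; adjusted p 0.893). In all, 10 of the 12 tested member probe sets had both nulls below both heterozygotes, where 17.0% of all probe sets did. The median difference of the tested members was -0.96, beside 0 for all probe sets.

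In forebrain none of the 12 tested member probe sets was called by limma, and Pdgfra had the widest gap. Of all 25925 probe sets 4 were called (0.0154%) and 1717 had an unadjusted p under 0.05. Of the 12, 6 had an unadjusted p under 0.05. Pdgfra 1421917_at read 483.9 and 484.1 in the heterozygotes and 92.2 and 19.7 in the nulls. The control arrays were well above their array median and the null arrays well below it, with a difference of -3.01 ± 0.45 (SE; 95% interval -4.00 to -2.02; adjusted p 0.0738). It passed the threshold when null forebrain 1 was left out, at -3.81, in a fit where the lone null array is taken to vary like the other groups. The values over arrays left out ran from -3.81 to -2.21. The dim and untested Pdgfra 1421916_at overlapped between genotypes, at 92.4 and 183.1 in heterozygotes and 194.5 and 160.5 in nulls. Pdgfra 1438946_at, also dim and untested, read 131.1 and 146.7 against 21.4 and 39.4.

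Gpr17 in forebrain read 240.9 and 252.8 in heterozygotes and 48.4 and 81.4 in nulls, with -1.73 ± 0.37 (SE; adjusted p 0.459). Cspg4 1450944_at read 435.7 and 429.6 against 272.3 and 221.7, with -0.78 ± 0.19 (SE; adjusted p 0.473). The second Cspg4 probe set, 1423341_at, read 103.2 and 103.3 against 10.4 and 21.1 (-1.93, adjusted p 0.625), under the median on every forebrain array. Sox10 1451689_a_at read 300.0 and 432.2 against 69.4 and 144.0, with -1.69 ± 0.61 (SE; adjusted p 0.687), and 1424985_a_at read 514.5 and 486.2 against 351.1 and 228.9, with -0.78 ± 0.22 (SE). In each of these probe sets both nulls were below both heterozygotes, without passing the threshold.

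The brightest tested probe sets of the other 4 genes overlapped between genotypes in forebrain. Bcas1 read 316.4 and 95.7 in heterozygotes and 138.8 and 259.6 in nulls, overlapping around the array median (0.10 ± 0.49, SE; 95% interval -0.99 to 1.19). Sox8 read 211.8 and 126.9 against 128.6 and 231.3 (0.07 ± 0.47, SE). Lhfpl3 1433990_at read 541.5 and 434.1 against 401.7 and 506.7 (-0.10 ± 0.17, SE; interval -0.48 to 0.28). Rlbp1 read 822.6 and 746.1 against 930.8 and 699.6 (0.04 ± 0.24, SE; interval -0.49 to 0.57). For Lhfpl3 and Rlbp1 the intervals leave room for changes of less than a log2 unit, whereas those of Bcas1 and Sox8 reach past it. Over the tested members, 6 of 12 probe sets had both nulls lower (18.9% of all probe sets) and 1, the dim Lhfpl3 1429592_at (97.2 and 116.2 against 117.1 and 127.9), had both higher (18.2%). Their median was -0.62, beside 0 for all.

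**Figure D1:**
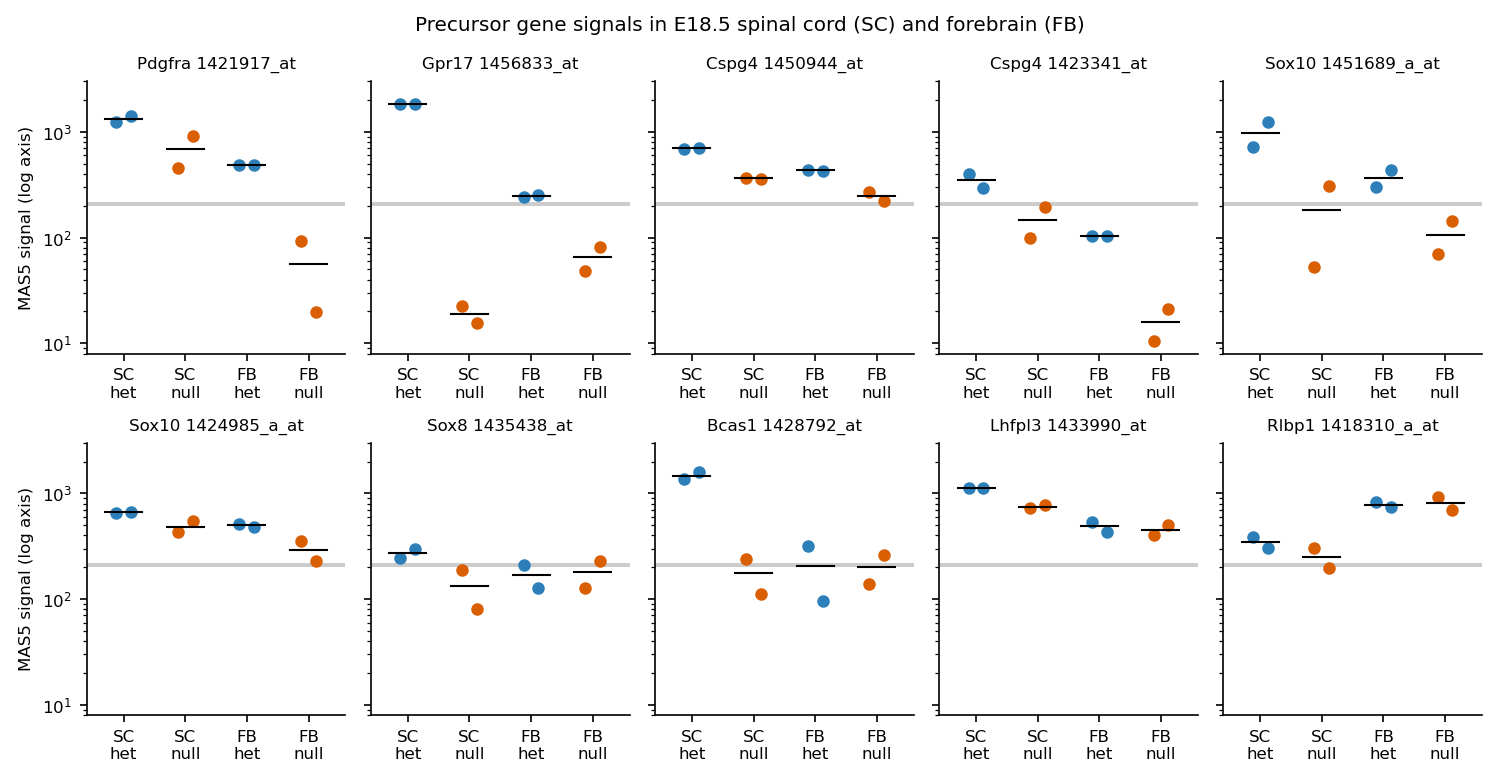
MAS5 signal (log axis) of 10 member probe sets in E18.5 spinal cord (SC) and forebrain (FB), with 1 point per array, blue for heterozygous and orange for null, a bar at the mean of 2 arrays and a grey band over the tissue arrays' medians. Gpr17 stands at 1837.5 and 1853.4 in heterozygous spinal cord and at 22.4 and 15.5 in the null, while Pdgfra 1421917_at has its widest gap in forebrain, 483.9 and 484.1 against 92.2 and 19.7.

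The tissues were then compared directly. The test of the difference of the null effect, spinal cord minus forebrain, called 1 of 25925 probe sets (0.00386%) and no member by limma, with 1574 of all probe sets and 3 member probe sets at an unadjusted p under 0.05. Gpr17 gave -4.01 ± 0.52 (SE; adjusted p 0.0824), Bcas1 -3.15 ± 0.70 (SE; adjusted p 0.581) and Pdgfra 1421917_at 2.00 ± 0.63 (SE; adjusted p 0.762). The first 2 had the larger deficit in spinal cord and Pdgfra had it in forebrain. With a pseudocount of 64 the Gpr17 difference passed the threshold. For Cspg4 1450944_at the difference was -0.13 ± 0.27 (SE; 95% interval -0.72 to 0.46).

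The starting levels also differed, since heterozygous spinal cord and heterozygous forebrain were not alike. Of the 12 tested member probe sets 6 were called between them, where 21.7% of all probe sets were. Bcas1 was higher in spinal cord by 2.95 ± 0.49 (SE; adjusted p 0.00165), Gpr17 by 2.82 ± 0.37 (3.5e-04), Lhfpl3 1433990_at by 1.19 ± 0.17 (6.9e-04), Pdgfra 1421917_at by 1.41 ± 0.45 (0.0454) and Cspg4 1450944_at by 0.67 ± 0.19 (0.0262). Rlbp1 was the exception, higher in forebrain (-1.15 ± 0.24, SE; adjusted p 0.00588). The calls of Pdgfra and of Cspg4 were lost without any 1 of the 4 heterozygous arrays. These arrays are also the controls of the null comparisons, so the levels and the null effects are not independent of each other.

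In neurospheres Cspg4 and Bcas1 fell without Olig, and Rlbp1 and Sox8 rose. Cspg4 1450944_at read 1335.4, 1490.2 and 864.2 in the wild-type lines, 1102.6, 742.4 and 779.0 in the heterozygous lines, and from 149.2 to 428.5 with a median of 298.2 in the 6 null lines. Every null line was below every line with Olig. The difference from the 6 lines with Olig was -1.84 ± 0.22 (SE; adjusted p 1.2e-04 by limma), a fold of 3.58. The second probe set, 1423341_at, read 840.0, 693.8 and 456.6 in wild-type, 689.9, 401.6 and 394.9 in heterozygous, and at most 103.5 (median 27.9) in null lines. It fell by 3.45 ± 0.31 (SE; adjusted p 1.2e-05 by limma). This probe set was tested only through the lines with Olig, so its call adds no support to that of the first. Of 25621 probe sets 6.61% were called in this comparison, 3.09% lower and 3.52% higher. Of the 9 tested member probe sets 5 were called, 3 lower and 2 higher. These include Cspg4 1423341_at and Rlbp1, each tested only with the groups where it was high, so the counts are description only.

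Bcas1 read 1912.8, 1211.3 and 552.7 in wild-type lines, 655.8, 1369.5 and 622.7 in heterozygous lines, and from 164.2 to 421.8 with a median of 224.8 in null lines. The lines with Olig were spread widely, yet the lowest of them was above the highest null line. Bcas1 fell by 1.91 ± 0.30 (SE; adjusted p 0.00110). The 2 Cspg4 probe sets and Bcas1 were thus without overlap, as were 1.72% of all probe sets in that direction.

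Rlbp1 and Sox8 were higher in null lines. Rlbp1 read 79.3, 125.1 and 117.2 in wild-type, 132.5, 194.6 and 275.5 in heterozygous and from 188.5 to 546.3 (median 392.0) in null lines. It rose by 1.25 ± 0.27 (SE; adjusted p 0.0102 by limma), although the null and heterozygous lines overlapped and the wild-type lines were below their array medians. Of the lines with Olig 2 of 6 reached the median, so Rlbp1 was tested only with the null lines counted. Sox8 read 966.2, 963.6 and 981.4 in wild-type, 1277.5, 1804.2 and 1148.2 in heterozygous and from 1392.1 to 1636.6 (median 1482) in null lines. Its rise of 0.37 ± 0.11 (SE; adjusted p 0.0498) sat at the threshold, and the call held in 1 of the 12 fits that left out 1 array.

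The other members gave no call in neurospheres. Sox10 1424985_a_at ran from 223.2 to 424.8 in the 6 lines with Olig and from 119.0 to 607.0 in the null lines, with -0.21 ± 0.30 (SE; 95% interval -0.85 to 0.44). Sox10 1451689_a_at ran from 99.9 to 257.6 in lines with Olig, of which 1 of 6 reached its array median, and from 47.9 to 325.1 in null lines, of which 4 of 6 did (0.38 ± 0.38, SE; interval -0.43 to 1.19). Lhfpl3 1433990_at ran from 136.5 to 325.3 against 145.9 to 254.8, with -0.25 ± 0.22 (SE; interval -0.73 to 0.22). Pdgfra 1421916_at, the only probe set of that gene to be tested in culture, ran from 34.8 to 208.1 against 60.2 to 194.5 and gave -0.10 ± 0.43 (SE; interval -1.02 to 0.82).

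Gpr17 was under the array median on all 22 neurosphere arrays, between 9.4 and 89.5, and was not tested there. Pdgfra 1421917_at, the brighter Pdgfra probe set in tissue, lay between 4.7 and 368.4 in culture and reached the median on 1 of 22 arrays. Of the surface genes of the dividing precursor, Cspg4 was thus bright in lines with Olig, whereas Pdgfra was dim in all 3 genotypes.

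Against wild-type lines alone, 5 of 9 tested member probe sets were called, where 5.45% of all were: Cspg4 at -2.07 ± 0.27 and -3.66 ± 0.38 (SE), Bcas1 at -2.11 ± 0.37, Sox8 at 0.63 ± 0.13 (adjusted p 0.0103) and Rlbp1 at 1.64 ± 0.33 (adjusted p 0.00776). Without wild-type line 2 the Sox8 and Rlbp1 calls were lost and 3 remained. Against heterozygous lines 3 of 9 were called, where 2.68% of all were: Cspg4 at -1.60 ± 0.27 and -3.24 ± 0.38, and Bcas1 at -1.71 ± 0.37 (adjusted p 0.0208). The Bcas1 call was lost without heterozygous line 11 or 15. Sox8 (0.12 ± 0.13, adjusted p 0.760) and Rlbp1 (0.86 ± 0.33, adjusted p 0.230) were not called against heterozygous lines and had smaller differences there than against wild-type. These comparisons share the null arrays.

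One lost copy of Olig1/2 called none of the 9 tested members by limma, where 2 of 25621 probe sets were called (0.00781%); 1714 probe sets and 1 member, Sox8, had an unadjusted p under 0.05. Sox8 was higher in all 3 heterozygous lines than in any wild-type line (0.50 ± 0.15, SE; adjusted p 0.500). Rlbp1 was also higher in all 3 (0.78 ± 0.38; adjusted p 0.755). In 5.62% of all probe sets every heterozygous line was above every wild-type line. Cspg4 1450944_at and Bcas1 overlapped between wild-type and heterozygous lines.

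**Figure D2:**
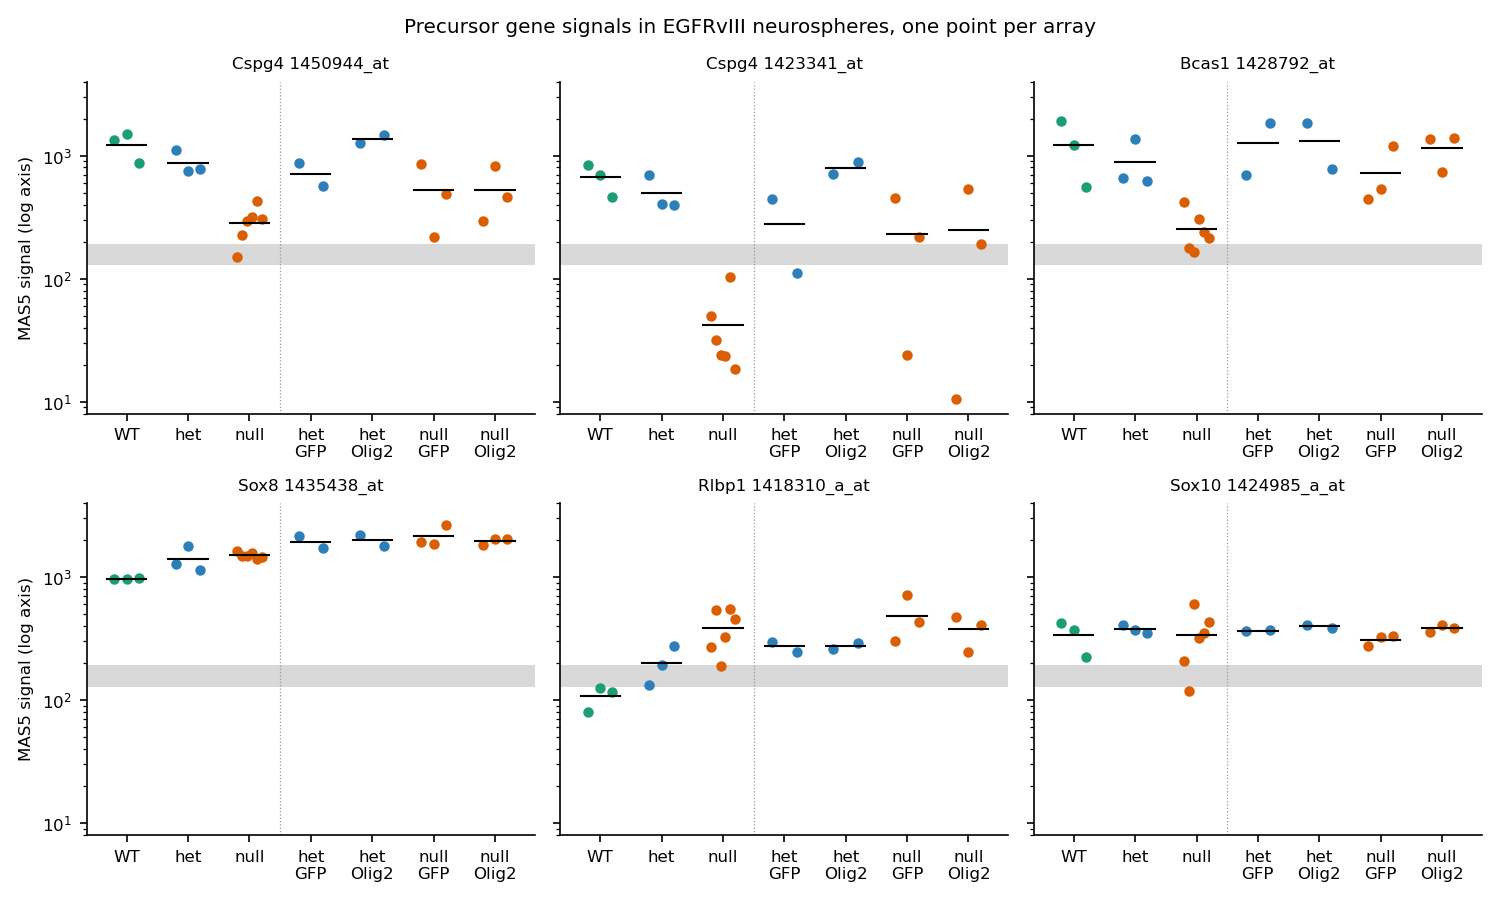
MAS5 signal (log axis) of 6 member probe sets on the 22 neurosphere arrays, 1 point per array, with green for wild-type, blue for heterozygous and orange for null, a bar at each group mean and a grey band over the array medians; groups right of the dotted line are labelled as carrying GFP or Olig2 virus. Cspg4 and Bcas1 are lower in all 6 null lines than in the 6 lines with Olig, at most 428.5 and 421.8, whereas null lines with either virus reach 861.6 and 1378.5.

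Arrays labelled as given Olig2 virus were compared with those given GFP virus in null lines 12, 13 and 14. The Olig2 probe set differed by -0.53 ± 0.23 (SE; adjusted p 0.168), not upward, so these arrays are called Olig2 after their labels only. The array of null line 13 with GFP had an A260/A280 ratio, a measure of RNA purity, of 2.83, where the other 29 arrays had 1.75 to 2.2, and the lowest median signal (128.9). Values without it are given below. None of the 8 tested member probe sets was called by limma, where 7.65% of 26735 probe sets were and 6931 had an unadjusted p under 0.05; 2 member probe sets had one. The median of all probe sets was shifted by 0.11 in this comparison (-0.01 after scaling to the 75th percentile), and the values below have not had it subtracted.

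Sox10 1451689_a_at read 250.7, 60.5 and 47.8 in null lines 12, 13 and 14 with GFP and 421.7, 267.8 and 248.2 in the same lines labelled Olig2 (1.55 ± 0.56, SE; adjusted p 0.111). It was called at 2.20 without null line 12 with GFP, and gave 1.30 without line 13 with GFP. Sox10 1424985_a_at read 272.8, 324.6 and 334.5 against 358.9, 409.0 and 382.8 (0.29 ± 0.18; adjusted p 0.312), and its groups did not overlap. Lhfpl3 1433990_at read 262.2, 213.8 and 161.8 against 473.1, 367.3 and 256.3 (0.72 ± 0.30; adjusted p 0.160). All 3 probe sets were higher in each line on the array labelled Olig2, as was Bcas1 below, while the other tested member probe sets were not. The groups of Sox10 1451689_a_at and of Lhfpl3 overlapped by a small margin, and none was called with the line as a replicate block. The share of all probe sets that rose in each line or did not overlap is not given here, so these patterns are description only.

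Cspg4 was not called, and its lines went different ways. Cspg4 1450944_at read 861.6, 216.6 and 487.7 in null lines 12, 13 and 14 with GFP and 294.4, 828.2 and 464.4 in the same lines labelled Olig2. The value was lower on the Olig2 array in line 12, higher in line 13 and close in line 14, with a difference of 0.10 ± 0.44 (SE; 95% interval -0.86 to 1.06), or -0.41 ± 0.38 (adjusted p 0.583) without line 13 with GFP. Its second probe set gave 449.2, 23.9 and 217.6 against 10.5, 537.4 and 190.2, which moved the same way line by line. Bcas1 read 441.1, 531.1 and 1202.2 with GFP and 1364.3, 733.4 and 1378.5 on the Olig2 arrays (0.75 ± 0.45; interval -0.24 to 1.73; 0.60 without line 13 with GFP). It was higher on the Olig2 array in each of the 3 lines, though the groups overlapped.

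In heterozygous lines 11 and 15 no probe set of any gene was called between arrays labelled Olig2 and GFP virus by limma (0 of 26735, 1008 at an unadjusted p under 0.05, none of the 8 members). Cspg4 1450944_at read 862.6 and 564.6 with GFP and 1262.1 and 1476.9 on the Olig2 arrays (0.95 ± 0.54, SE; interval -0.22 to 2.13). The test of an unequal difference between Olig2 and GFP arrays in null and in heterozygous lines called no member either, where 0.0524% of all probe sets were called and 2797 had an unadjusted p under 0.05. Its one member at that level was Sox10 1451689_a_at, at 2.30 ± 0.89 (SE; adjusted p 0.403).

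With GFP virus in both, null and heterozygous lines gave no called member of 8 (1.43% of all, and 3941 at an unadjusted p under 0.05). Cspg4 1450944_at differed by -0.61 ± 0.49 (SE; interval -1.68 to 0.46) and Bcas1 by -0.76 ± 0.51 (interval -1.87 to 0.34). Without null line 13 with GFP they differed by -0.10 and -0.62. Null lines with GFP virus could also be set beside the same lines without a second virus. Bcas1 went from 421.8 to 441.1 in line 12, from 176.7 to 531.1 in line 13 and from 164.2 to 1202.2 in line 14. Cspg4 1450944_at went from 149.2 to 861.6 in line 12, from 224.6 to 216.6 in line 13 and from 293.6 to 487.7 in line 14. Bcas1 was higher with GFP virus in each of the 3 lines, and Cspg4 in lines 12 and 14. Passage at harvest and the second drug selection also separate these arrays, and their part was not tested.

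The null effects in tissue and in culture were compared in 1 fit of 20 arrays, with heterozygotes as control on both sides. For spinal cord against neurospheres 1 of 13 tested member probe sets was called, where 0.434% of 30200 were. It was Gpr17, at -5.71 ± 0.76 (SE; adjusted p 9.8e-04), a gene under the array median on every neurosphere array, so its culture term rests on signals with no usable level. Sox10 1451689_a_at gave -3.21 ± 0.86 (SE; adjusted p 0.137) and passed without null line 24. The brighter Sox10 probe set, 1424985_a_at, gave only -0.15 (adjusted p 0.983) in the same limma test, so the gene's probe sets differed. Cspg4 1423341_at gave 2.03 ± 0.63 (adjusted p 0.236), a larger deficit in culture that was not called. The brighter Cspg4 1450944_at gave 0.70 (adjusted p 0.741). Bcas1 gave -1.33 ± 0.70 (interval -2.80 to 0.13).

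For forebrain against neurospheres no member of 13 was called by limma, where 0.377% of all probe sets were and 2563 had an unadjusted p under 0.05, 4 members among them. Bcas1 gave 1.81 ± 0.70 (SE; adjusted p 0.427): its mean signal was 206 in heterozygous and 199.2 in null forebrain but 882.7 and 253.0 in culture. Pdgfra 1421917_at gave -2.18 ± 0.97 (adjusted p 0.534) and Sox10 1451689_a_at -2.21 ± 0.86 (adjusted p 0.427). The dim Pdgfra 1421916_at gave 0.45 (adjusted p 0.951) and the brighter Sox10 1424985_a_at -0.48 (adjusted p 0.909). Cspg4 1450944_at gave 0.83 ± 0.42 (interval -0.04 to 1.70).

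**Figure D3:**
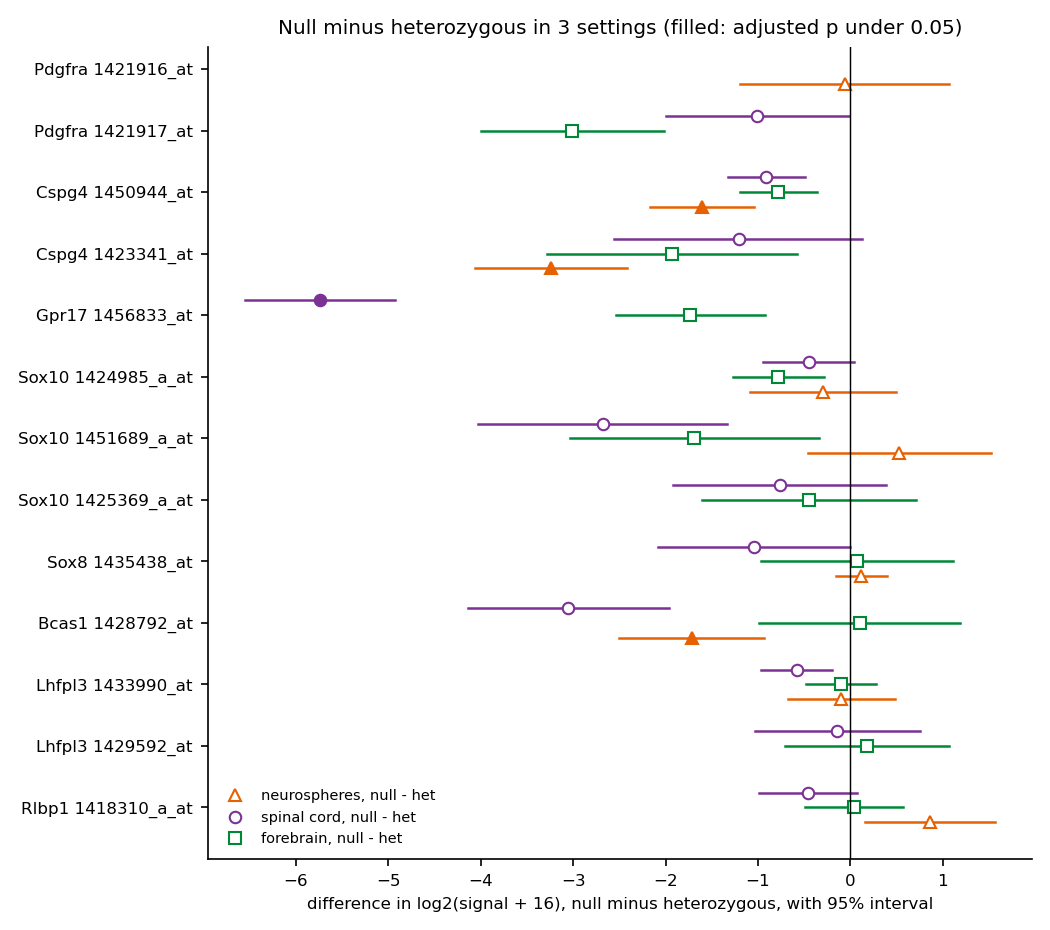
Difference of null from heterozygous samples in log2(signal + 16), with 95% intervals, for 13 member probe sets in spinal cord (circles), forebrain (squares) and neurospheres without a second virus (triangles); filled symbols passed an adjusted p of 0.05 and a missing symbol was not tested. Filled symbols are Gpr17 in spinal cord (-5.74), the 2 Cspg4 probe sets in neurospheres (-1.60 and -3.24) and Bcas1 in neurospheres (-1.71).

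Other genes of the lineage were read from lists, with 1 probe set a gene. The list of further precursor genes holds Olig1 and Olig2, the deleted genes themselves. Of its 18 tested genes, 1 was called in spinal cord, Olig1 (-1.03 ± 0.12, SE; adjusted p 0.0119), and none in forebrain (limma, with 10 and 3 at an unadjusted p under 0.05). Over all 25925 tested probe sets, 1528 in spinal cord and 1717 in forebrain had an unadjusted p under 0.05. The list's medians were -0.48 and -0.10. The extracellular protein gene Tnr gave -1.08 in spinal cord and -0.37 in forebrain, and the ventral transcription factor gene Nkx2-2 gave -1.02 and 0.17, none of them called. Of 13 tested premyelinating and myelin genes, 2 were called lower in spinal cord and none in forebrain (4 and 2 at an unadjusted p under 0.05), with medians of -0.26 and -0.02. Mbp, for myelin basic protein, had a mean signal of 3046 ± 490.2 (SD, n = 2) in heterozygous and 389.2 ± 136.3 in null spinal cord (-2.95 ± 0.26, SE; adjusted p 0.00219). Cnp, which encodes an enzyme of early myelin, had 3525 ± 276 against 1591 ± 328.2 (-1.15 ± 0.15; adjusted p 0.0196).

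In neurospheres 7 of 16 tested further precursor genes were called between null lines and those with Olig, 6 lower and 1 higher, where 3.09% of all probe sets were called lower and 3.52% higher. Of the 6, 2 were Olig1 and Olig2 themselves. The 16 genes had a list median of -0.41 beside -0.03 for all probe sets. The endothelin receptor gene Ednrb fell by 1.81 ± 0.21 (SE; adjusted p 1.1e-04) and the proteoglycan genes Vcan and Cspg5 fell by 1.31 ± 0.36 and 0.84 ± 0.22. C1ql1 rose by 0.87 ± 0.25. The ligand gene Pdgfa fell by 0.84 ± 0.24 (adjusted p 0.0459), while its values in spinal cord and forebrain were -0.08 and -0.31 and were not called. Of 12 tested premyelinating and myelin genes 1 was called, Gpr37, which rose by 3.25 ± 0.43 (adjusted p 3.1e-04). Of 13 astrocyte and radial glial genes 4 rose and 1 fell, with Glul, for glutamine synthetase, rising by 1.74 ± 0.20.

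Several members are also expressed outside the oligodendrocyte lineage, so lists of other cell types were read beside them. None of their genes was called by limma in spinal cord or forebrain. In spinal cord 4 of 7 tested meningeal fibroblast genes, 2 of 10 pericyte and endothelial, 1 of 4 microglial, 2 of 13 astrocyte and radial glial, 1 of 5 sensory ganglion and 1 of 5 PDGF family genes had an unadjusted p under 0.05, and no Schwann or neuronal gene. Among all 25925 probe sets tested in spinal cord, 1528 had one, so these counts over short lists are description only. The median differences there were -0.08 for Schwann and neural crest, -0.20 for sensory ganglion, 0.02 for astrocyte, -0.02 for neuronal and 0.21 for PDGF ligand and receptor beta genes. The summed signal of the 9 Schwann and neural crest genes with a probe set was 4012 to 4478 in heterozygous and 3816 to 4444 in null spinal cord. The 8 meningeal fibroblast genes, a cell type that also carries Pdgfra, summed to 16060 to 21270 in heterozygotes and 27820 to 28540 in nulls (median difference of 7 tested genes 0.61). The 10 pericyte and endothelial genes, whose pericytes also carry Cspg4, summed to 8041 to 9113 and 10570 to 11880 (median 0.34). The 6 microglial genes summed to 4092 to 4248 and 5924 to 6112 (median 0.51). In forebrain the fibroblast sums were 2164 to 2783 and 2559 to 2576 and the pericyte and endothelial sums 6350 to 6363 and 6461 to 7219. The part of these cells in the remaining Pdgfra and Cspg4 signal of the null spinal cord was not tested.

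**Figure D4:**
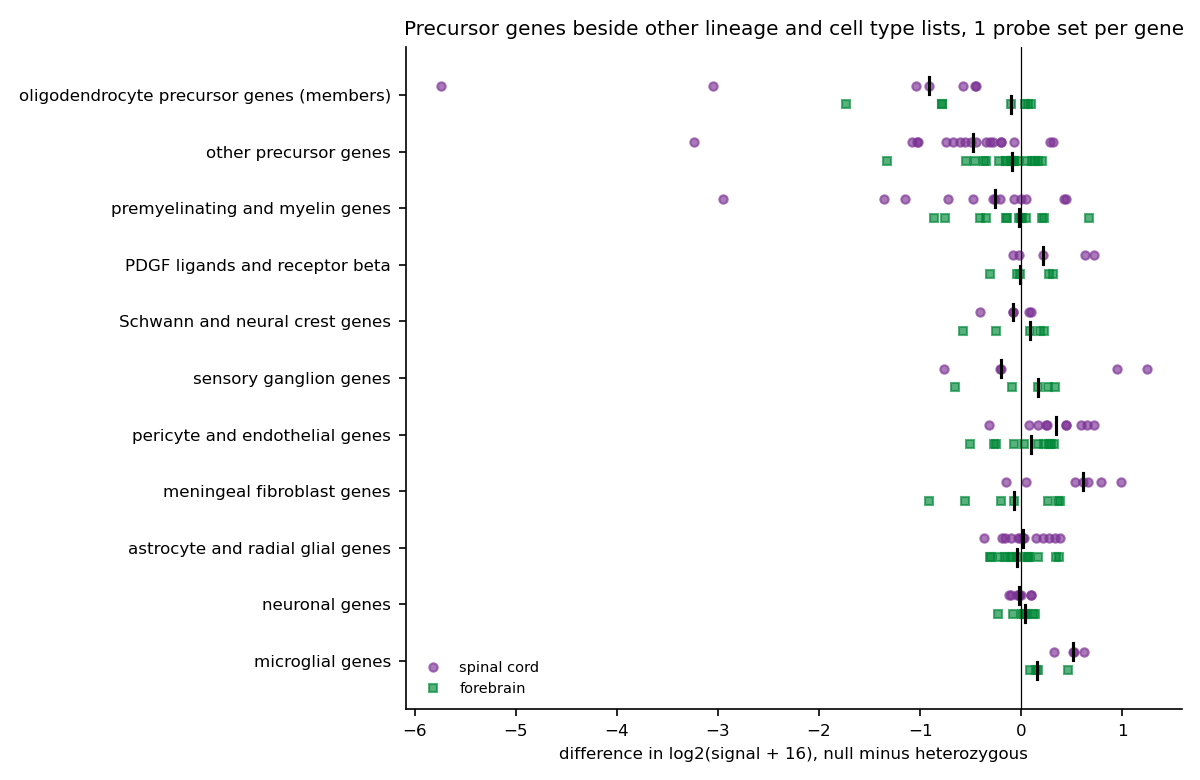
Difference of null from heterozygous samples in log2(signal + 16) for the members and for 10 gene lists, 1 tested probe set per gene, with spinal cord as purple circles, forebrain as green squares and a black tick at each list's median. Pdgfra is not among the members drawn because its probe set of highest mean signal was not tested in tissue. Members reach -5.74 in spinal cord, and the meningeal, pericyte and microglial medians there lie at 0.61, 0.34 and 0.51.

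The genes most like Sox10 and Pdgfra over the 11 group means, by the root mean square difference of centred log2 signals, were not members. Those nearest to Sox10 1424985_a_at were Afg1l, Uroc1, Otop2, E130308A19Rik and Mfsd12, at 0.16 to 0.17 against a median of 0.53 over 12335 genes, and those nearest to the dim Pdgfra 1421916_at were Themis3, Retn, Wasf3, Cyp2e1 and 4632404H12Rik. The nearest member to Sox10 was that dim Pdgfra probe set, at 0.48 and only rank 5158, close to the median of 0.53. The nearest member to Pdgfra 1421916_at was the dim Enpp6, at 0.37 and rank 617, against a median of 0.57.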

How the data were processed

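Per the submitters' processing notes the tool was MAS5, with its version not given in the sources used here. Values deposited by the authors are MAS5 signals, an intensity on a linear scale, with a mean of 500 on each array without its lowest and highest 2%. Detection calls were not used here. Of 45101 probe sets, 34958 had 1 gene symbol in the platform annotation. Log2(signal + 16) was fitted in R 4.3.3 with limma 3.58.1 (lmFit and contrasts.fit, then eBayes with a trend; two-sided; Benjamini-Hochberg over all probe sets tested in a comparison), in separate fits for 8 tissue arrays, 12 neurosphere arrays, 10 arrays with a second virus and, for tissue against culture, 20 arrays. The fit was tested on simulated data. Olig-expressing is the mean of wild-type and heterozygous groups.

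Every member probe set was accounted for. In lists a gene was read from its brightest probe set by mean log2 signal, and up to 4 genes of smallest p in spinal cord could be named from a list; genes named for neurospheres were chosen after their values were seen. The members and lists were chosen with earlier results of these data known. Embryo and line numbers pair arrays of the same embryo or culture, per the labels, and correlations of paired deviations ran from 0.03 to 0.13, so the main fits are unpaired and the pair is an alternative block. Other alternatives were pseudocounts of 1 and 64, other filters, quantile and 75th percentile scaling, array weights, no trend, groups compared alone and leaving out each array. All arrays share 1 hybridization date in the labels, so no batch could be compared. Array number limits the precision. The data.table package (version 1.17.8) was used for reading and matplotlib 3.10.9 for plots.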

Additional observations from a re-analysis of the deposited data

Results flagged for a closer look

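Of 18 groups of null neurosphere values checked, 1 for each member probe set, 3 held a line far from the other 5. The rule would set apart about 1 in 20 groups of normally distributed values. That rate need not hold for dim signals on a linear scale, so no excess over chance is claimed. Pdgfra 1421917_at read 84.3 in null line 13 and from 4.9 to 16.5 in the others. Cspg4 1423341_at read 103.5 in null line 21 and at most 49.6 in the others. Gpr17 read 89.5 in null line 14 and from 9.9 to 27.7 in the others. All 3 values lay under their array's median. The null effect on Gpr17 differed between spinal cord and neurospheres, by -5.71 on the log2 scale (adjusted p 9.8e-04, limma). Gpr17 was tested there only through its heterozygous tissue arrays. It lay under the array median on all 22 neurosphere arrays, so this value gives no measured effect in culture.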

How the results depend on the processing

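Each of 170 results was recomputed under its alternatives, giving 3348 values. Of these, 3286 kept their side of the threshold or, for counts, stayed within 1.5 times. Another 34 lost a call, 16 gained one and 12 counts moved by over 1.5 times. No call changed direction (0 reversed). Direction was not compared where neither value was called, and some of those differences changed sign. Bcas1 in forebrain, for example, ran from -0.69 to 0.89 over arrays left out. In spinal cord the count of 1 called member probe set became 2 with a pseudocount of 64 and 2 with the groups compared alone, by adding Bcas1, 0 with the filter on the mean, which removed Gpr17 from the test, and 1 to 2 over arrays left out. In forebrain it was 0 to 1 over arrays left out, the 1 being Pdgfra without null 1. For the difference between tissues 0 became 1 with a pseudocount of 64. For spinal cord against neurospheres 1 became 0 with the filter on the mean and was 1 to 2 over arrays left out. Against wild-type lines the count was 3 to 5, and for Olig2 virus in null lines 0 to 1, over arrays left out. With the embryo or line as a replicate block no call and no count changed: the spinal cord count was 1 and the forebrain count 0. The Sox8 rise against lines with Olig kept its call in 4 of 10 other settings. With 2 arrays a group the spread in tissue rests on few arrays, and probe sets under the array median give no usable level.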
